A study of Arabidopsis thaliana with 17 samples.

Results

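The genes described are 10 enzymes that make the auxin indole-3-acetic acid in Arabidopsis thaliana, TAA1 (AT1G70560), TAR2 (AT4G24670), YUC3 (AT1G04610), YUC5 (AT5G43890), YUC6 (AT5G25620), YUC7 (AT2G33230), YUC8 (AT4G28720), YUC9 (AT1G04180), CYP79B2 (AT4G39950) and CYP79B3 (AT2G22330). They were taken by their gene identifiers from the 37336 features of each of 2 deposited RNA-seq tables. All libraries came from whole roots of 14-day-old plants grown on half-strength MS medium with sucrose, labelled as mock-treated. The groups are bamboo (2 libraries, numbered 2 and 3), Col-0-b, the wild type set taken as its partner (3 libraries), and Col-0, a separate wild type set (3 libraries), 8 of the 17 libraries of the series. BAMBOO is a long non-coding RNA that the study pairs with NF-YA2, a subunit of the CCAAT-binding NF-Y factor. The study calls bamboo a mutant and its deposited table carries KD in its name, while the kind of allele, the number of lines and the number of plants per library are not given in the sources used here. The labels do not say whether replicates came from separate cultures, so the p-values measure only the spread between these libraries. In whole-root RNA, fewer cells of a type and less RNA per cell cannot be told apart.

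Most auxin in this plant is made from tryptophan by a short pathway. Aminotransferases of the TAA1 and TAR family turn tryptophan into indole-3-pyruvate, and flavin monooxygenases of the YUCCA (YUC) family turn that into auxin, the step usually taken as limiting. CYP79B2 and CYP79B3 are cytochrome P450 enzymes that turn tryptophan into indole-3-acetaldoxime, which feeds indole glucosinolates, the defence compound camalexin and, to some extent, auxin. In roots, local synthesis keeps the stem cell niche active and adds to the auxin that arrives from the shoot.

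The identity of the tissue was checked first. Each of 9 root markers had reads in all 8 libraries, and their summed level was 366 to 369 CPM (reads scaled to the library total) in bamboo, 343 to 370 CPM in Col-0 and 341 to 360 CPM in Col-0-b. The 8 photosynthetic shoot markers also had reads in every library, with a summed level of 97.4 and 103 CPM in bamboo, 56.5 to 65.3 CPM in Col-0 and 151, 77 and 74.5 CPM in Col-0-b replicates 1, 2 and 3. Depth was 16963843 to 24333119 reads in the bamboo and Col-0-b libraries and 13637179 to 21206367 in Col-0. On the first principal component of the bamboo and Col-0-b table (44.7% of the variance), bamboo replicates 2 and 3 scored 34.7 and 6.45, against -21.9 to -8.56 in Col-0-b.

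In bamboo roots, no auxin synthesis enzyme passed the test against Col-0-b. YUC7 was too low to be tested, and 8 of the 9 tested members had a lower estimate in bamboo, with YUC8 the exception. The median log2 fold change of the 9 was -0.18, against -0.00057 over all 20274 tested genes, of which 50.1% had a negative value. All members were measured in the same 5 libraries and were chosen with earlier results known, so this count is a description only. The limma test, with Benjamini-Hochberg adjustment over all tested genes at 0.05, called 0 of the 9 members (adjusted p from 0.163 to 0.895), where it called 0.133% of all genes. At an unadjusted p under 0.05 it marked 2 of the 9, YUC6 and CYP79B3, both lower in bamboo, against 16.8% of all genes in either direction and 8.21% as lower. On reads recovered from the same table, edgeR (0.138% of all genes called) and DESeq2 (1.66% of the genes given an adjusted p) also called 0 members, and DESeq2 gave no adjusted p for YUC5. Levels below are normalized counts, that is reads divided by the authors' size factor for each library, and a log2 fold change is the mean log2(normalized count + 1) of bamboo minus that of Col-0-b, with its standard error (SE).

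The aminotransferases come first in the pathway. TAA1, the tryptophan aminotransferase needed for shade avoidance and for root responses to ethylene, had 208 and 207 normalized counts in bamboo replicates 2 and 3, against 225, 228 and 272 in Col-0-b replicates 1, 2 and 3. The bamboo values were all below those of Col-0-b, as for 17.5% of all tested genes, and Col-0-b replicate 3 stood above the other Col-0-b libraries. TAA1 averaged 207 ± 0.772 in bamboo and 242 ± 26.2 in Col-0-b (SD, n = 2 and 3), and limma gave a log2 fold change of -0.21 with an SE of 0.12 (adjusted p = 0.394). The spread of the 2 bamboo values, 0.372% of their mean, was below the 6.54% that counting alone gives at about this depth, so the closeness of those libraries does not measure their precision.

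TAR2, the close relative of TAA1 that acts with it in roots, had 311 and 397 normalized counts in bamboo replicates 2 and 3, against 412, 396 and 384 in Col-0-b. The groups overlapped, because only bamboo replicate 2 was below the Col-0-b libraries. Limma gave a log2 fold change of -0.18 with an SE of 0.11 (adjusted p = 0.448). Taken separately, bamboo replicate 2 lay 0.35 below the Col-0-b mean on the log2 scale, while bamboo replicate 3 differed from it by -0.0018. Summed over TAA1 and TAR2, the level was 519 and 603 normalized counts in bamboo and 624 to 656 in Col-0-b.

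YUC6 was the YUC gene with the most even difference. It had 550 and 547 normalized counts in bamboo, against 630, 666 and 683 in Col-0-b. All bamboo values were below all Col-0-b values. YUC6 averaged 548 ± 2.38 in bamboo and 660 ± 27.4 in Col-0-b (SD, n = 2 and 3). Limma gave it a log2 fold change of -0.27 with an SE of 0.08 and a 95% interval of -0.44 to -0.09 (adjusted p = 0.163), a fold of 0.832. Its unadjusted p of 0.00717 ranked 889 among the 20274 genes, and both bamboo libraries lay about equally far from the Col-0-b mean, at -0.26 and -0.27. As for TAA1, the bamboo values were closer together (0.434% of their mean) than the 4.02% that counting alone gives.

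YUC9, a root-expressed YUC gene, was the other tested YUC gene with no overlap. It had 180 and 203 normalized counts in bamboo, against 226, 210 and 250 in Col-0-b. The nearest libraries of the 2 groups, bamboo replicate 3 and Col-0-b replicate 2, were 203 and 210. Limma gave a log2 fold change of -0.25 with an SE of 0.12 (adjusted p = 0.332). YUC6, YUC9 and TAA1 were thus the 3 of 9 tested members with all bamboo libraries below Col-0-b, and none had them all above, where 17.5% and 17.1% of all genes did.

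YUC3, another root YUC gene, had 159 and 204 normalized counts in bamboo, against 198, 197 and 219 in Col-0-b. As with TAR2, bamboo replicate 2 was low and bamboo replicate 3 lay among the Col-0-b libraries, with differences from the Col-0-b mean of -0.36 and -0.0017. Limma gave a log2 fold change of -0.18 with an SE of 0.14 (adjusted p = 0.529).

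YUC8, which is known in seedlings as a gene of the response to warmth and shade, had the positive estimate. It had 108 and 125 normalized counts in bamboo, against 107, 82.6 and 123 in Col-0-b. The bamboo values lay close to or above the upper Col-0-b libraries, and Col-0-b replicate 2 was the low one. Its log2 fold change of 0.17 had an SE of 0.18 and a 95% interval of -0.23 to 0.57 (limma adjusted p = 0.663).

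YUC5 was low in every library, with 33.6 and 23.7 normalized counts in bamboo, against 29, 28.3 and 33.5 in Col-0-b. These rest on 36 and 28 reads in bamboo and on 29, 23 and 33 in Col-0-b, where counting alone gives a spread of 17.7% in bamboo and 18.8% in Col-0-b. The 2 bamboo values enclosed those of Col-0-b. The log2 fold change of -0.09 had an SE of 0.27 (limma adjusted p = 0.895) and a 95% interval of -0.68 to 0.49, which leaves room for a change of about 1.4-fold upward and a fold of 0.625 downward.

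YUC7 was at the limit of detection. It had 1 and 0 reads in bamboo, and 1 read in each Col-0-b library. Its 0 in bamboo replicate 3 allows up to 0.123 CPM, taking 3 reads of the library total as the limit, so no fold is given. In the RefSeq annotation, YUC7 overlaps the protein-coding gene AT2G33220, which had 2321 and 2206 reads in bamboo and 1763, 1464 and 1717 in Col-0-b replicates 1, 2 and 3.

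**Figure D1:**
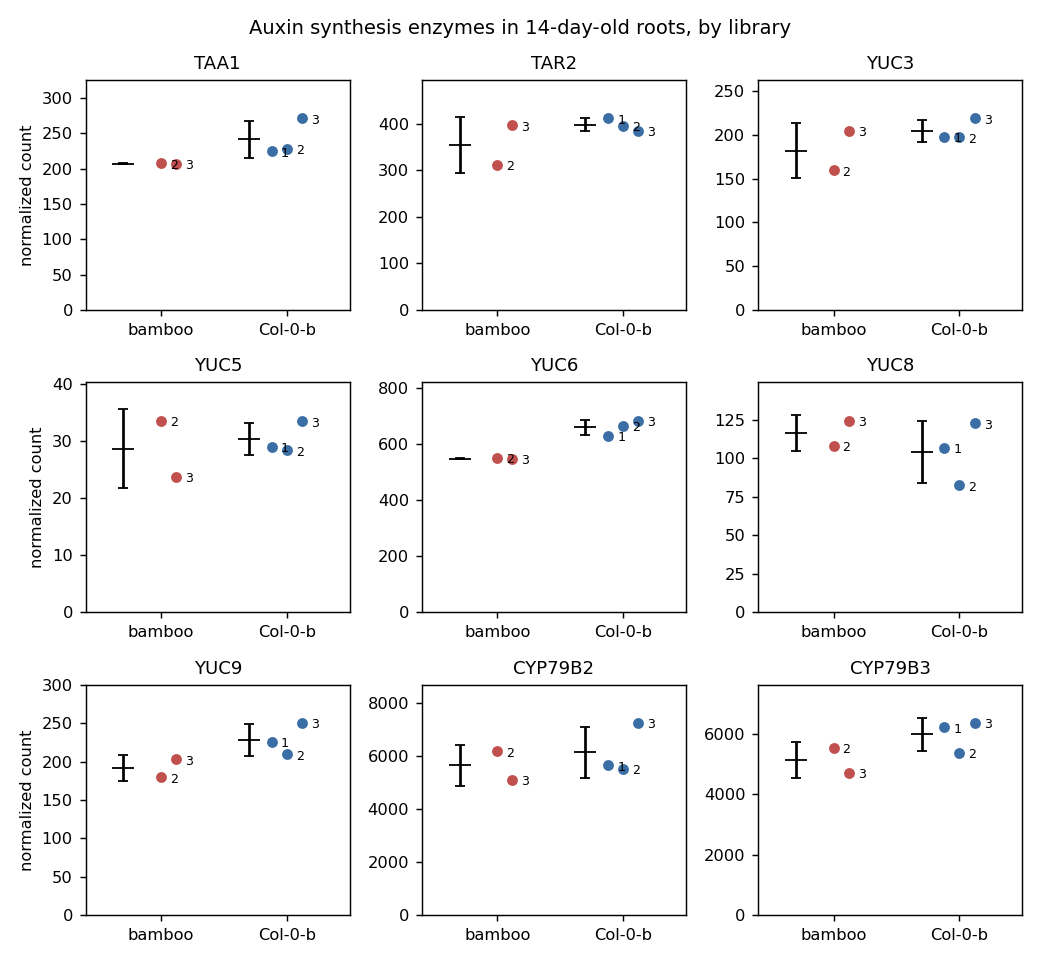
Normalized counts (y axis, from 0) of the 9 tested auxin synthesis enzymes in bamboo (red) and Col-0-b (blue). Each point is a library with its replicate number, and the bar to its left is the mean ± SD; TAA1, YUC6 and YUC9 have all bamboo points below the Col-0-b points, and the other panels overlap.

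The acetaldoxime enzymes had by far the most reads among the 10. CYP79B2 had 6190 and 5112 normalized counts in bamboo, against 5652, 5512 and 7250 in Col-0-b. Bamboo replicate 2 lay within the Col-0-b range and bamboo replicate 3 below it, and Col-0-b replicate 3 was the highest of the 5. Limma gave a log2 fold change of -0.11 with an SE of 0.13 (adjusted p = 0.687).

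CYP79B3, its close paralogue, had 5555 and 4719 normalized counts in bamboo, against 6224, 5379 and 6369 in Col-0-b. Again bamboo replicate 3 was the lowest library and bamboo replicate 2 lay within the Col-0-b range. CYP79B3 averaged 5137 ± 591 in bamboo and 5991 ± 535 in Col-0-b (SD, n = 2 and 3), a log2 fold change of -0.22 with an SE of 0.09 and a 95% interval of -0.43 to -0.02 (limma adjusted p = 0.267). Counting alone gives a spread of 1.32% in bamboo and 1.33% in Col-0-b, so nearly all of the spread of this gene lies between libraries. CYP79B2 and CYP79B3 are similar in sequence, and their separate values are uncertain if counting divided shared reads between them. Their summed level was 11745 and 9831 normalized counts in bamboo and 10890 to 13619 in Col-0-b.

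**Figure D2:**
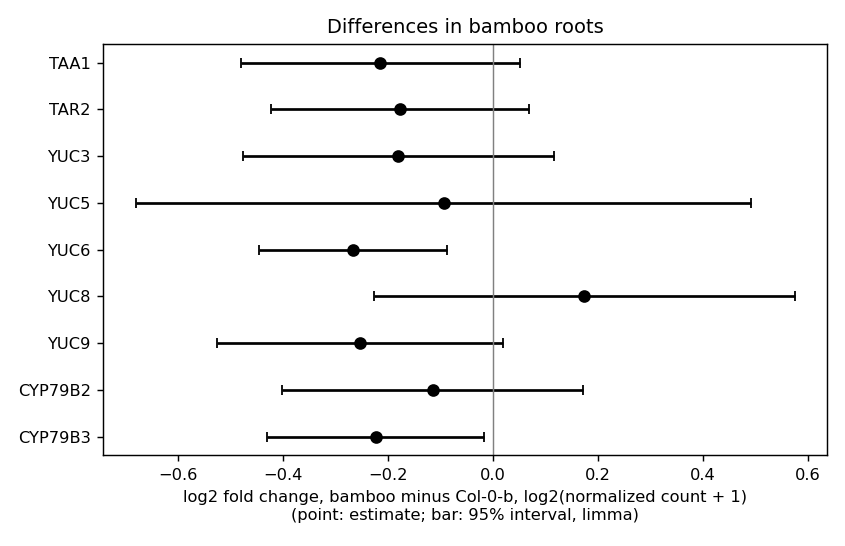
Log2 fold change of each tested enzyme (x axis, bamboo minus Col-0-b on the log2(normalized count + 1) scale), with the estimate as a point and its 95% interval from limma as a bar. The intervals of YUC6 (-0.44 to -0.09) and CYP79B3 (-0.43 to -0.02) lie below 0 before adjustment, and the other 7 include 0.

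The 2 bamboo libraries differed from each other in which enzymes were low. Against the Col-0-b mean, 6 of the 9 tested members were lower in bamboo replicate 2. In bamboo replicate 3, 8 had a negative difference, of which TAR2 (-0.0018) and YUC3 (-0.0017) were level with the Col-0-b mean. TAA1, YUC6, YUC9 and CYP79B3 were lower in both libraries, and the medians over the 9 were -0.21 and -0.22. TAR2 and YUC3 were low in bamboo replicate 2 alone. CYP79B2, CYP79B3 and YUC5 were lowest in bamboo replicate 3, where they lay 0.25, 0.34 and 0.33 below the Col-0-b mean. TAA1 and YUC6 were lower by nearly the same amount in both libraries. Bamboo replicate 2 is the library that stood apart on the first principal component. Leaving it out gave log2 fold changes of -0.0018 for TAR2 and -0.0017 for YUC3, while leaving out bamboo replicate 3 turned YUC5 to 0.15 and CYP79B2 to 0.02, with 0 members called either way, where 0.154% of all genes were called without bamboo replicate 2 and 9.66% without bamboo replicate 3.

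**Figure D3:**
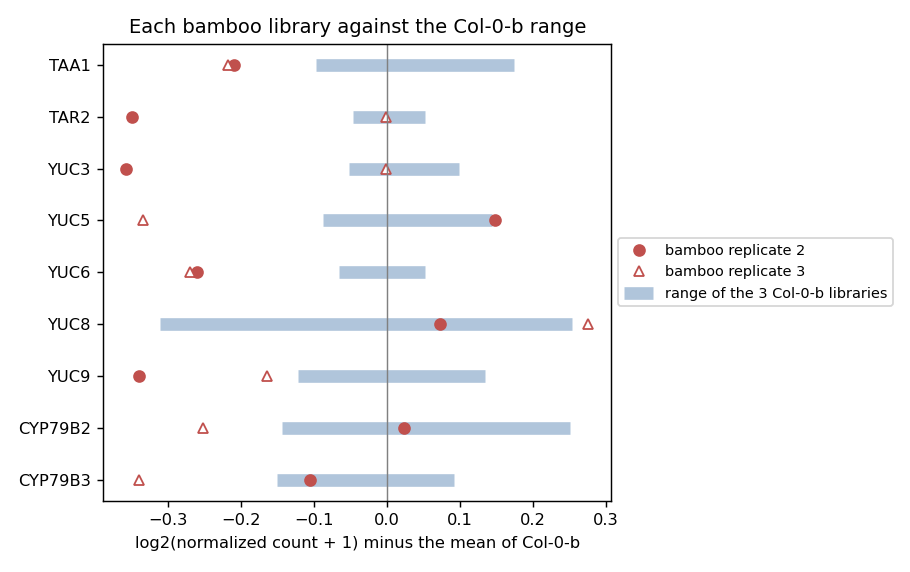
Difference of each bamboo library from the Col-0-b mean (x axis, log2(normalized count + 1)) for the 9 tested enzymes, with replicate 2 as filled circles and replicate 3 as open triangles. The blue band is the range of the 3 Col-0-b libraries; both symbols lie left of it for TAA1, YUC6 and YUC9, only replicate 2 for TAR2 and YUC3, and only replicate 3 for YUC5, CYP79B2 and CYP79B3.

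Root meristem markers were read beside these values because TAA1 and several YUC genes are expressed near the root tip. The summed level of the 6 markers was 1638 and 1868 normalized counts in bamboo replicates 2 and 3, against 1770, 1869 and 2157 in Col-0-b, and none was at 0 in any library. Of the 6, 4 had a negative log2 fold change and 0 were called by limma. At an unadjusted p under 0.05 limma marked 2, both lower in bamboo, against 16.8% of all genes in either direction and 8.21% as lower. PLT2, a regulator of stem cell identity in the root tip, averaged 128 ± 30.3 in bamboo and 166 ± 8.97 in Col-0-b (SD, n = 2 and 3), with a log2 fold change of -0.39 (limma adjusted p = 0.246). WOX5, the marker of the quiescent centre, had a log2 fold change of 0.34 (adjusted p = 0.551). The 8 shoot markers had a summed level of 2065 and 2118 normalized counts in bamboo, against 3134, 1611 and 1545 in Col-0-b replicates 1, 2 and 3. Bamboo lay above Col-0-b replicates 2 and 3 and below replicate 1, which stood apart. Of the 8, 7 had a positive log2 fold change (median 0.09), with 0 called by limma and 0 at an unadjusted p under 0.05. For some of these the mean normalized count was nonetheless lower in bamboo, as for CAB1 (180 against 211) and LHCB2.1 (66 against 72.2). Their sign thus depends on how the high Col-0-b replicate 1 is averaged. CAB1, a light-harvesting protein, had 207 and 153 normalized counts in bamboo, against 452, 90 and 90.2 in Col-0-b, and a log2 fold change of 0.20 (adjusted p = 0.942). LHCB2.1, of the same family, had 0.16 (adjusted p = 0.927). The part of these markers in the values of the enzymes was not tested.

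Genes around the synthesis enzymes were read from lists of the pathway's other steps, and limma and edgeR called 0 of their members in bamboo, while DESeq2 called 2, both auxin inactivation genes described below. Over all tested genes, 50.1% had a negative log2 fold change and limma marked 16.8% at an unadjusted p under 0.05. Of 12 tryptophan synthesis genes, all tested, 9 had a negative and 3 a positive log2 fold change. Their median was -0.10, with 0 at an unadjusted p under 0.05. PAI3 (-0.31, limma adjusted p = 0.32) and PAI1 (-0.22, adjusted p = 0.326), phosphoribosylanthranilate isomerases, had the largest values, and the separate levels of the similar PAI copies are uncertain. Of 14 genes of the indole glucosinolate and camalexin branch, 8 were negative and 6 positive (median -0.02, 0 at an unadjusted p under 0.05). CYP71A13, a camalexin P450 with a close paralogue in CYP71A12, had -0.19 (adjusted p = 0.845) and GGP1, a peptidase of glucosinolate synthesis, 0.18 (adjusted p = 0.46).

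Of 5 genes of the nitrile and amide routes, 3 were negative and 2 positive (median -0.03, 1 at an unadjusted p under 0.05). Limma marked 16.8% of all genes at that level, and 50.1% of all genes had a negative value. The nitrilases NIT4 and NIT1 had -0.35 (limma adjusted p = 0.547) and 0.18 (adjusted p = 0.279). Of 8 further YUC and aminotransferase-like entries, 6 were too low to be tested. The 2 tested had a median of 0.29, with 1 at an unadjusted p under 0.05. These, AT1G34060 and AT1G34040, have no symbol in RefSeq and had 0.38 (adjusted p = 0.553) and 0.20 (adjusted p = 0.285). Of 13 regulators of synthesis genes, 7 were tested and 6 were negative (median -0.10, 0 at an unadjusted p under 0.05). The largest in size were WOX5 (0.34), named above among the meristem markers, and the light-signalling factor PIF3 (-0.21, adjusted p = 0.605).

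Genes that remove or release free auxin had mostly positive estimates in bamboo. Over all tested genes, 50.1% had a negative log2 fold change. The lists were chosen with earlier results known, so these counts are a description only. Of 14 inactivation genes, 11 were tested, 8 positive and 3 negative, with a median of 0.15. At an unadjusted p under 0.05 limma marked 4 as higher and 2 as lower, 6 of 11 against 16.8% of all genes, and none passed limma's adjustment. UGT84B1, a glucosyltransferase, had 0.56 with an SE of 0.42 (adjusted p = 0.523). Its levels were low and overlapped, at 30.8 and 15.3 normalized counts in bamboo, against 19, 17.3 and 9.13 in Col-0-b. BRU6, the GH3 amido synthetase also called GH3.2, had 0.45 (adjusted p = 0.172). GH3.17, which conjugates auxin to glutamate, came nearest to the threshold and was picked out after its values were seen. It had 3668 and 3496 normalized counts in bamboo, against 2764, 2742 and 2564 in Col-0-b, and limma gave 0.41 on the log2 scale with an SE of 0.07 (adjusted p = 0.0554). Bamboo was higher in every pair of libraries, as for 17.1% of all tested genes. The adjusted p was 0.0525 with edgeR and 0.000889 with DESeq2, which also called AT1G14120, a gene with no symbol in RefSeq (0.41, limma adjusted p = 0.193). DESeq2 thus called 2 of the 10 inactivation genes it gave an adjusted p, against 1.66% of all such genes. Of 12 genes that free auxin from conjugates or from indole-3-butyric acid, 11 were tested, 10 positive and 1 negative (median 0.11). Limma marked 1 of these at an unadjusted p under 0.05, against 16.8% of all genes. ILL6, an amidohydrolase relative, had 0.31 (adjusted p = 0.301), and IBR10, of indole-3-butyric acid breakdown, 0.30 (adjusted p = 0.158).

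**Figure D4:**
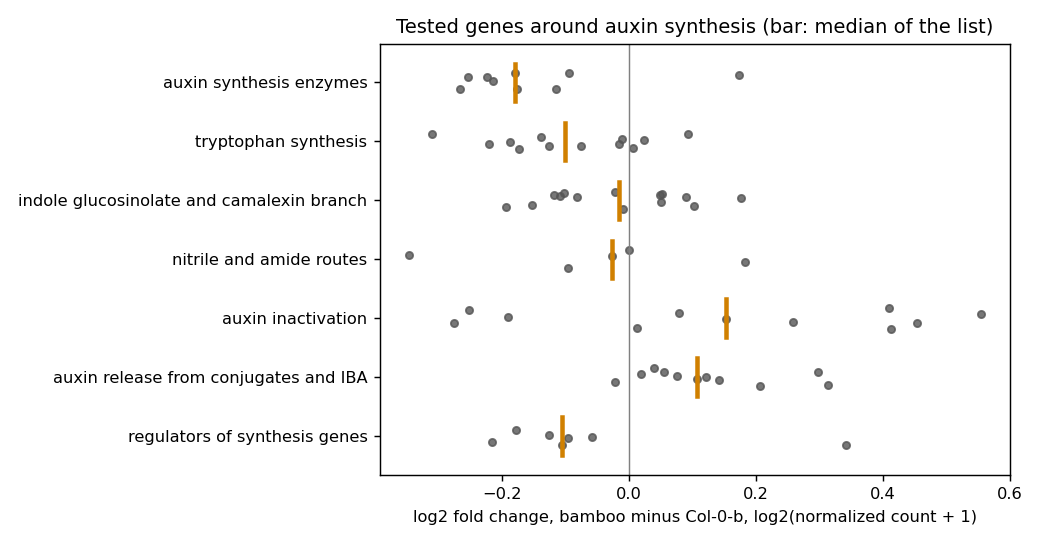
Log2 fold change (x axis, bamboo minus Col-0-b on the log2(normalized count + 1) scale) of the tested genes in 7 lists, 1 point a gene, spread vertically to separate them, with the list median as an orange bar. The synthesis enzymes have a median of -0.18, auxin inactivation 0.15 and auxin release 0.11, and none of the points passed limma's adjusted test.

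The genes whose pattern was nearest to that of YUC6, the tested member with the largest absolute log2 fold change, were AT5G67550, AT1G64920 and SLP2. Likeness was the Euclidean distance between log2 values centred on each gene's own mean over the 5 bamboo and Col-0-b libraries, and was 0.0283, 0.0363 and 0.037 for these genes, against a median of 0.403 over the 20273 genes compared. The nearest other synthesis enzyme was TAA1, at 0.166. AT5G67550 had 118 and 120 normalized counts in bamboo, against 138, 145 and 151 in Col-0-b. It was picked for this likeness, so sharing the order of YUC6 within Col-0-b follows from the choice. Within bamboo its order was the reverse of that of YUC6 (550 and 547).

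In the wild type sets, YUC6 and YUC9 had lower and YUC3, YUC5 and YUC8 higher levels in Col-0 than in Col-0-b. Their tables were deposited separately, so values are set side by side as CPM with no test, and what else differed between the sets is not given in the labels. Libraries of the 2 sets did not overlap for 8 of the 9 tested members, 5 of them higher and 3 lower in Col-0. Among all tested genes 52.9% did not overlap, with 26.9% higher and 26.0% lower, so separation of the sets is common. No tested member had means 2-fold apart, as 9.3% of all genes did without overlap.

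YUC9 averaged 5.72 ± 0.39 CPM in Col-0 and 11 ± 1.03 CPM in Col-0-b (SD, n = 3 each), a fold of 0.52. YUC6 averaged 17.3 ± 2.48 CPM in Col-0 and 31.7 ± 1.3 CPM in Col-0-b, a fold of 0.546. YUC8 went the other way, with 9.6, 8.58 and 9.53 CPM in Col-0 against 5.16, 3.95 and 5.92 CPM in Col-0-b, a fold of 1.84. YUC5 averaged 2.53 ± 0.156 CPM in Col-0 and 1.46 ± 0.139 CPM in Col-0-b, a fold of 1.74. YUC3 had 14.6 to 19.3 CPM in Col-0 and 9.43 to 10.6 CPM in Col-0-b, a fold of 1.67. These 5 genes had no overlap between the sets, and the summed YUC level was 48.9 to 53.8 CPM in Col-0 and 56.7 to 63.2 CPM in Col-0-b.

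The ratio of reads within a library does not depend on how libraries were scaled. YUC8 had 0.601 and 0.613 reads for each YUC9 read in bamboo, 1.69, 1.4 and 1.78 in Col-0 and 0.473, 0.394 and 0.49 in Col-0-b. Both bamboo ratios were above the Col-0-b ratios and far below those of Col-0. YUC8 was the only tested member with a positive bamboo estimate, and it was higher in Col-0 where YUC9 was lower. The ratios therefore restate those differences and add no separate evidence. Gene pairs beyond those given here were not compared. YUC3 had 0.29 and 0.374 reads for each YUC6 read in bamboo, 0.723 to 1.21 in Col-0 and 0.296 to 0.32 in Col-0-b. YUC3 was likewise higher and YUC6 lower in Col-0, so this separation also follows from the levels above. TAA1 had 0.668 and 0.521 reads for each TAR2 read in bamboo, 0.773 to 1.02 in Col-0 and 0.546 to 0.707 in Col-0-b, so that bamboo overlapped Col-0-b and Col-0 lay above both. CYP79B2 to CYP79B3 was the steady pair, at 1.11 and 1.08 in bamboo, 0.982 to 1.11 in Col-0 and 0.908 to 1.14 in Col-0-b.

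TAR2 was lower in Col-0, at 10.9 to 17.5 CPM against 18.5 to 19.9 CPM in Col-0-b, while TAA1 overlapped, at 11.1 to 13.5 CPM in Col-0 and 10.8 to 13.1 CPM in Col-0-b. CYP79B2 had 361 to 378 CPM in Col-0 and 264 to 350 CPM in Col-0-b, and CYP79B3 had 332 to 385 CPM in Col-0 and 257 to 307 CPM in Col-0-b, folds of 1.25 and 1.24. YUC7 had 4, 9 and 13 reads in Col-0 against 1 read in each Col-0-b library, 26 and 3 in all. That is a ratio of 9.03 on the CPM scale, with an exact 95% interval of 2.77 to 46.6 that covers counting error only. The Col-0 libraries were at 0.191, 0.424 and 0.953 CPM. Their spread was 74.7% of their mean, against 34% from counting alone, and the interval does not cover that spread between libraries. The overlapping gene AT2G33220 was at 77 to 83.4 CPM in Col-0 and 84 to 86.3 CPM in Col-0-b. Meristem markers summed to 98.2 to 111 CPM in Col-0 and 85.4 to 104 CPM in Col-0-b, and their part in these values was not tested.

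Across the 3 sets, the mean CPM of TAA1, YUC3, YUC5, CYP79B2 and CYP79B3 was highest in Col-0, then Col-0-b, then bamboo. Of these neighbours, Col-0 and Col-0-b were separate for all but TAA1, and Col-0-b and bamboo were separate for TAA1 alone. TAR2, YUC6 and YUC9 ran from Col-0-b through bamboo to Col-0, with bamboo separate from Col-0-b for YUC6 and YUC9. Col-0 and bamboo overlapped for TAR2 and were separate for the other tested members. The share of all genes separate between these sets was not computed, so this is not read as a result about the members. Among all tested genes, 52.9% were separate between Col-0 and Col-0-b. Bamboo lay wholly below Col-0-b, on normalized counts, for 17.5%. YUC8 ran from Col-0 through bamboo to Col-0-b, the last of which overlapped bamboo. Levels of different enzymes were not ranked, since transcript lengths were not used here.

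**Figure D5:**
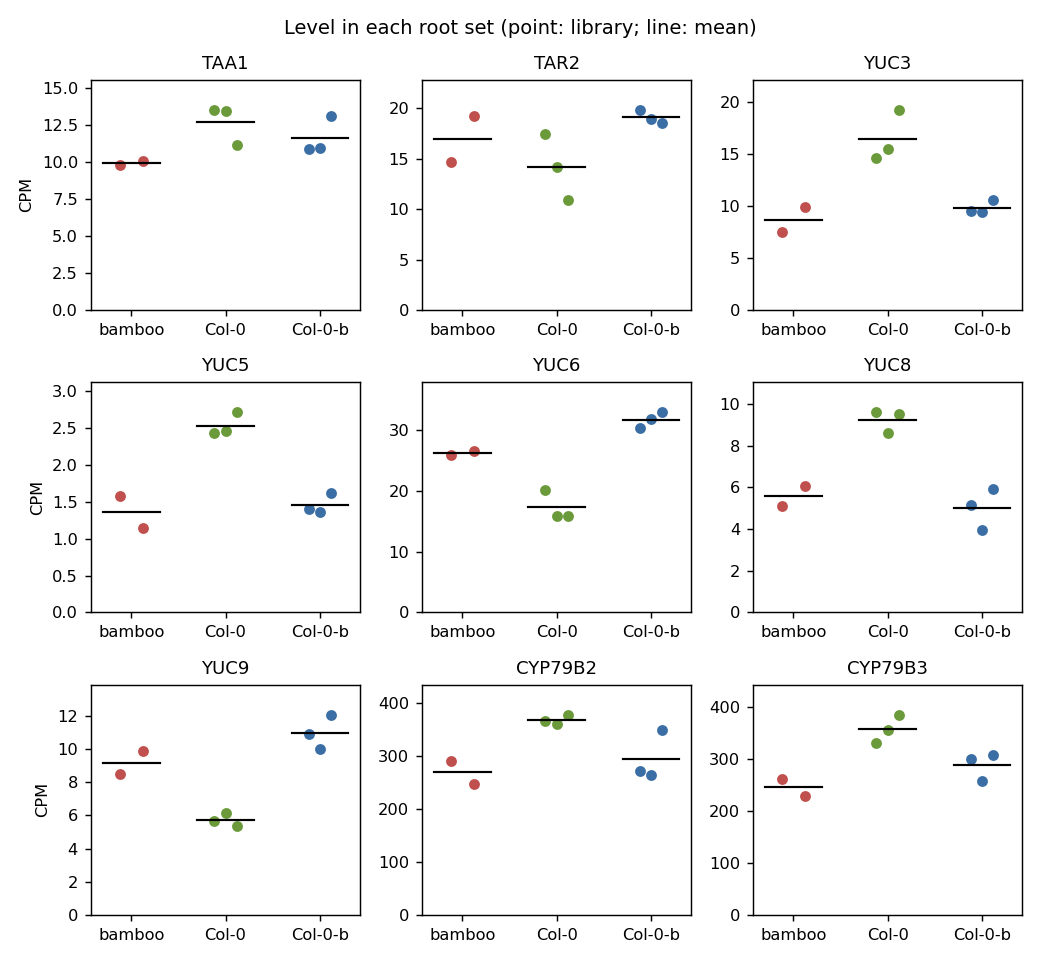
CPM (y axis, from 0) of the 9 tested enzymes in bamboo (red), Col-0 (green) and Col-0-b (blue), each point a library and each line a group mean. YUC3, YUC5 and YUC8 are highest in Col-0 and YUC6 and YUC9 lowest there, while bamboo lies nearer to Col-0-b in these 5 panels.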

How the data were processed

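RNA libraries of whole roots were made with a stranded mRNA kit and read as 75-nt single ends, per the labels. The submitters' processing notes name Trimmomatic, STAR (2.7.2a), featureCounts (Subread 1.6.5) and the build TAIR10; sources used here do not give the strand setting. The deposited values of bamboo and Col-0-b are a signal, reads over 1 size factor per library set by the authors. Those of Col-0 are raw counts deposited by the authors. The WT columns stand in the same table as bamboo and were therefore read as Col-0-b, and 6 columns whose names do not settle their line were not used. Each value was a whole multiple of the value of 1 read within 0.01 (100% of values), so reads were recovered, and CPM was computed from them.

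Genes with at least 10 normalized counts in at least 2 libraries were tested on log2(value + 1) with limma 3.58.1 in R 4.3.3 (trend, robust, group as the only term). On this scale the change of low genes is understated. edgeR 4.0.16 and DESeq2 1.42.0 on recovered reads, a pseudocount of 8, no filter, TMM scaling, a replicate block and leaving out each library were alternatives. The fits were tested on simulated counts. Members and lists were chosen with earlier results of these data known. Named besides the 10 members are called genes and the 2 largest changes of each list, and the 3 genes nearest to the tested member with the largest change. Symbols and overlaps came from RefSeq genes on TAIR10.1, with no coordinates printed (37051 of 37336 features matched).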

Additional observations from a re-analysis of the deposited data

How the results depend on the processing

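The number of auxin synthesis enzymes called in bamboo was 0 in all 11 alternatives, and the lowest adjusted p of any of them was 0.0677 (TAR2 without bamboo replicate 3). Of 99 log2 fold changes of the 9 tested enzymes under these alternatives, 96 kept their direction and none passed the threshold. The other 3 turned: YUC5 to 0.15 and CYP79B2 to 0.024 without bamboo replicate 3, and CYP79B2 to 0.01 without Col-0-b replicate 3. Dropping the filter leaves each fold change unchanged by construction. The replicate block gives the same fold changes as leaving out Col-0-b replicate 1. The 99 values are therefore not all separate checks. Leaving out 1 library gave -0.33 to 0.15 for YUC5, -0.25 to 0.02 for CYP79B2 and -0.30 to -0.24 for YUC6. The estimate nearest 0 was 0.02 for YUC8 without Col-0-b replicate 2, -0.13 for TAA1 without Col-0-b replicate 3, -0.10 for CYP79B3 without bamboo replicate 3, and -0.16 for YUC9, -0.0018 for TAR2 and -0.0017 for YUC3 without bamboo replicate 2. Over all genes, 14 were higher and 13 lower in bamboo. These counts became 46 and 29 when every gene with a read was tested, 188 and 115 with DESeq2, and 513 and 379 with a replicate block. They ran from 6 to 894 higher and from 4 to 1052 lower when 1 library was left out, both highest without bamboo replicate 3; with 1 library left in bamboo, it is assumed to vary like Col-0-b. The cause of these changes was not tested. Only 2 replicate numbers are shared, and differences between them correlated at 0.079 across genes, so the block is given here only. Under it YUC6 had -0.30 (limma adjusted p = 0.0719). That fold change rests on replicates 2 and 3 of each group, because Col-0-b replicate 1 has no bamboo partner. Little is then left to estimate the spread from, which also limits the counts of 513 and 379. Depth limits YUC5 and YUC7, where 3 reads are 2.54 to 3.7 normalized counts.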
